A study of Mus musculus with 2 samples.

Results

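The visual cycle genes examined here encode proteins that make, carry or recycle the retinoid chromophore of vision: Rpe65, Rdh5, Stra6, Lrat, Rlbp1, Rdh10, Abca4, Rbp3, Rdh12 and Rdh8. A probe was taken for a gene when it was no control spot and its annotated transcript was a RefSeq transcript of that gene, which gave 11 probes for these 10 genes, out of 55677 probes and 21367 named genes on the array. Abca4 had 2 probes and each other gene had 1. Total RNA from 1 sample of dissected mouse retina labelled Samd7 KO and 1 labelled Samd7 WT (genotype given as wild type), both at postnatal day 12, was labelled with the dye Cy3 and hybridised to 1 Agilent 1-colour array each. The labels name no strain, give no number of animals or retinas behind each RNA, and do not name the part of Samd7 that the knockout lacks. The study compared the expression profiles of the 2 genotypes.

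Photons turn the 11-cis-retinal bound to opsins into the all-trans form, and the visual cycle turns it back. In the classical cycle, photoreceptors clear all-trans-retinal from the disc and reduce it to all-trans-retinol, the pigment epithelium esterifies, isomerises and oxidises it, and 11-cis-retinal returns to the photoreceptors. Müller glia, the radial glia of the retina, hold some of the same proteins and are thought to serve cones. The pigment epithelium lies against the photoreceptors but is not part of the neural retina, so its transcripts can reach a retinal RNA sample with cells that stay attached in dissection. The genes were ordered by the cell type in which each is best known: Rpe65, Rdh5, Stra6 and Lrat in the pigment epithelium, Rlbp1 and Rdh10 in pigment epithelium and Müller glia, and Abca4, Rbp3, Rdh12 and Rdh8 in photoreceptors.

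On each array, 60.9% (Samd7 KO) and 60.3% (Samd7 WT) of the 59305 non-control spots passed the scanner's call of being well above background, and no spot was saturated. Samd7 itself had a log2 signal of 6.47 on the KO-labelled array and 4.68 on the WT-labelled array, so its 1 named probe was 3.44-fold higher where the gene was labelled as deleted. The position of that probe relative to the deletion is not known here, and a probe outside the deleted part checks nothing. All directions below rest on the labels, and the arrays are called KO-labelled and WT-labelled for that reason. Taken as lists, cone markers and lens genes were also higher on the KO-labelled array, with median log2 differences of 0.997 and 1.85. The lists, chosen with earlier results of these data known, held 15 cone genes and 12 lens genes, 2 of the lens genes given by bounds. Cone genes were split, from -0.21 for Thrb to 3.61 for Ccdc136, with 4 of the 15 below 0. Of the lens genes, 1 was below 0. The summed signal of the lens list was 4.10 times as high on the KO-labelled array as on the WT-labelled array. Cryaa had the brightest probe of that list on both arrays, at log2 3.53 (KO-labelled) and 1.28 (WT-labelled). The source of the summed signal, and its part in the differences of the visual cycle genes, were not tested. With 1 array per group there was no spread between animals, no test and no p-value. The errors available were the SD of the log2 difference between repeated spots of 1 probe, which was 0.05 at log2 signals of 0 or more, 0.09 from -2 to 0 and 0.19 from -4 to -2, and the scanner software's own error of each spot, which came to about 0.20 for most of the differences given here. Neither covers labelling, hybridisation or animals. Log2 signals are given relative to the 75th percentile of each array, and all differences are KO-labelled minus WT-labelled. Signals of different probes cannot be set against each other as levels of their genes.

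The 3 measured pigment epithelium genes were lower on the KO-labelled array by nearly the same amount, while the genes shared with Müller glia and those of photoreceptors lay closer to 0. Rpe65, Rdh5 and Stra6 differed by -0.45, -0.40 and -0.40 on the log2 scale, with a median of -0.40. Rlbp1 was level at -0.0001 and Rdh10 was higher by 0.24. The photoreceptor genes ran from -0.28 for Abca4 to 0.12 for Rdh8, with a median of -0.11. None of the 9 measured genes was 2-fold apart, a difference reached by 2.94% of all 15926 named genes above background on at least 1 array. At a smaller threshold, a log2 difference of 0.32 (rounded), 3 of the 9 were lower, against 7.59% of all named genes, and 0 were higher, against 6.1%. The genes and this threshold were chosen with earlier results of these data known, so the counts only describe. Among the 8728 named genes with a mean log2 signal of 0 or more, where spot noise is smallest, 2.34% were lower and 3.37% higher by at least that much. The median difference of all named genes was -0.02. With 1 array per group, the difference between the 3 sets of visual cycle genes had no test either. All 9 genes were well above background on both arrays, so none entered through 1 group alone.

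**Figure D1:**
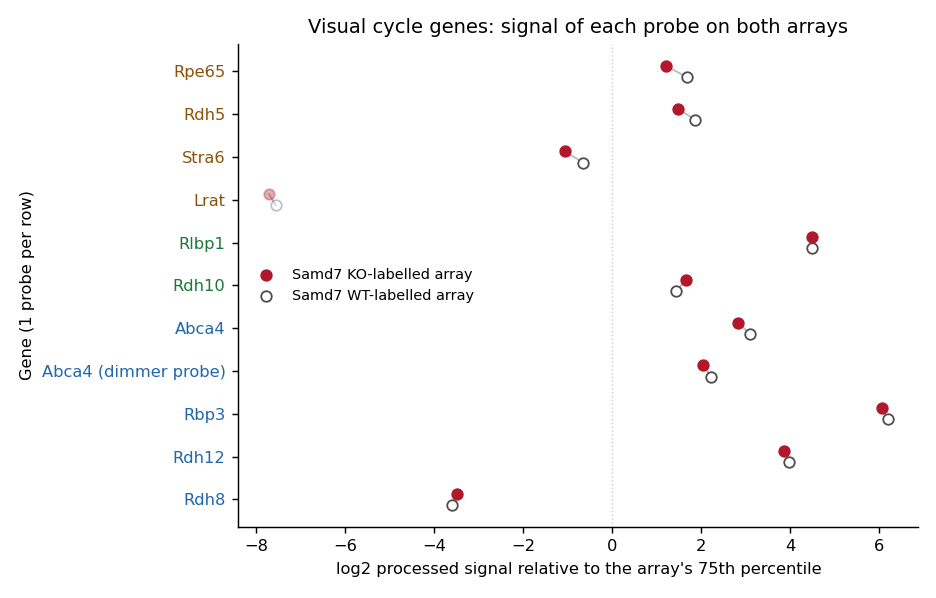
Log2 processed signal (x axis, relative to each array's 75th percentile) of each visual cycle probe (rows), with the KO-labelled array as filled red points and the WT-labelled array as open points; gene names are brown for pigment epithelium, green for pigment epithelium and Müller glia, and blue for photoreceptors. Rpe65, Rdh5 and Stra6 lie to the left on the KO-labelled array, Rlbp1 coincides on both arrays, and the pale points of Lrat were not well above background on either array.

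Rpe65, the isomerohydrolase that converts all-trans-retinyl esters to 11-cis-retinol, had a processed signal of 1287 on the KO-labelled array and 1830 on the WT-labelled array (probe A_55_P2043237). On the log2 scale these were 1.22 on the KO-labelled array and 1.67 on the WT-labelled array, a difference of -0.45 with a scanner error of 0.20, so after scaling the KO-labelled signal was 73.0% of the WT-labelled one. The difference was 9.33 times the SD between repeated spots. Of all 15247 genes measured on both arrays, 3.22% had a lower difference than Rpe65.

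Rdh5, the 11-cis-retinol dehydrogenase that makes 11-cis-retinal in the pigment epithelium, had a signal of 1537 on the KO-labelled array and 2101 on the WT-labelled array (probe A_66_P138289). Its log2 difference of -0.40, with a scanner error of 0.20, put the scaled KO-labelled signal at 75.9% of the WT-labelled one, and 4.08% of genes had a lower difference. Stra6, the membrane receptor through which cells take up retinol from its plasma carrier, had a signal of 266 on the KO-labelled array and 366 on the WT-labelled array (probe A_55_P1973451). The log2 values of Stra6 were -1.06 on the KO-labelled array and -0.65 on the WT-labelled array, and the difference of -0.40 was 4.70 times the spot SD at that signal. In the 3 genes the difference exceeded both the spot SD and the scanner error. Lrat, the acyltransferase that makes retinyl esters for Rpe65, was not well above background on either array, with signals of 2.65 on the KO-labelled array and 3.05 on the WT-labelled array (probe A_52_P669005). It therefore gives no difference and is in none of the counts or medians of measured genes.

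Rlbp1 encodes the cytosolic retinaldehyde-binding protein, which holds 11-cis retinoids in pigment epithelium and Müller glia. Its signal was 12405 on the KO-labelled array and 12870 on the WT-labelled array (probe A_51_P211793), and after scaling both arrays stood at a log2 value of 4.49. Rdh10, a retinol dehydrogenase known also for retinoic acid synthesis in the embryo, was the only visual cycle gene outside photoreceptors that was higher on the KO-labelled array. It had a signal of 1761 on the KO-labelled array and 1551 on the WT-labelled array (probe A_52_P59318), a log2 difference of 0.24 with a scanner error of 0.20. That is 4.85 times the spot SD and 117.8% of the scaled WT-labelled signal, and 92.6% of genes had a lower difference.

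Of the photoreceptor genes, Abca4, Rbp3 and Rdh12 were slightly lower on the KO-labelled array. Abca4, the disc rim transporter that clears retinal adducts from the disc lumen, had a signal of 3903 on the KO-labelled array and 4931 on the WT-labelled array with its brighter probe (A_55_P2146034), a difference of -0.28. Its dimmer probe (A_55_P2095084) read 2272 on the KO-labelled array and 2689 on the WT-labelled array, a difference of -0.19, so both probes of Abca4 had the same sign. Rbp3, the carrier of retinoids in the matrix between photoreceptors and pigment epithelium, read 37256 on the KO-labelled array and 41870 on the WT-labelled array (probe A_55_P2041060). The log2 values of Rbp3 were 6.07 on the KO-labelled array and 6.19 on the WT-labelled array, and the difference of -0.12 lay within the scanner error of 0.20.

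Rdh12, a retinal reductase of photoreceptor inner segments, read 8085 on the KO-labelled array and 9006 on the WT-labelled array (probe A_55_P2102135), a difference of -0.10, also within the scanner error. For Rbp3 and Rdh12 the difference was 2.37 and 2.11 times the spot SD. Rdh8, the all-trans-retinal reductase of outer segments, was dim, at 49.5 on the KO-labelled array and 47.1 on the WT-labelled array (probe A_55_P1970570). Its difference of 0.12 was smaller than the spot SD of 0.19 at that signal, so Rdh8 did not differ measurably. Of the photoreceptor genes, only the brighter Abca4 probe exceeded the scanner error.

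**Figure D2:**
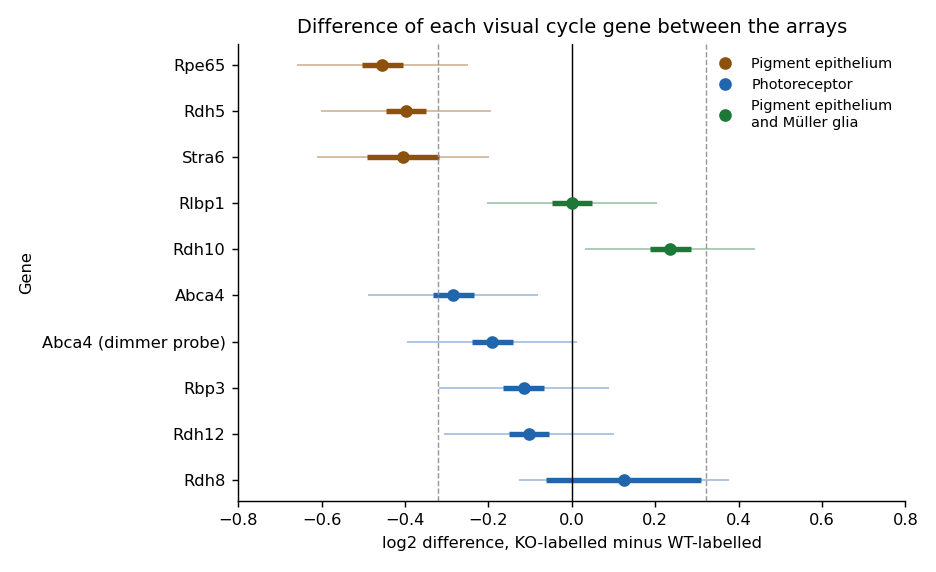
Log2 difference (x axis, KO-labelled minus WT-labelled) of each probe above background on both arrays (rows); thick bars are the SD between repeated spots at that signal, thin bars the scanner software's error, and dashed lines mark a log2 difference of 0.32. The 3 pigment epithelium genes lie between -0.45 and -0.40, left of the dashed line, and every other probe lies between -0.28 and 0.24.

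Set against all measured genes, Rpe65 and Rdh5 lay at the low edge of the cloud at their signal. Of all genes measured on both arrays, 3.98% had a lower difference than Stra6, and no share at its own signal was taken. Among genes measured on both arrays with a mean log2 signal of 0 or more, 1.29% had a lower difference than Rpe65 and 1.59% a lower one than Rdh5. For Abca4 that share was 2.97% with its brighter probe, for Rbp3 15.8% and for Rdh12 18.9%. These shares describe 2 arrays across genes and are not tests.

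**Figure D3:**
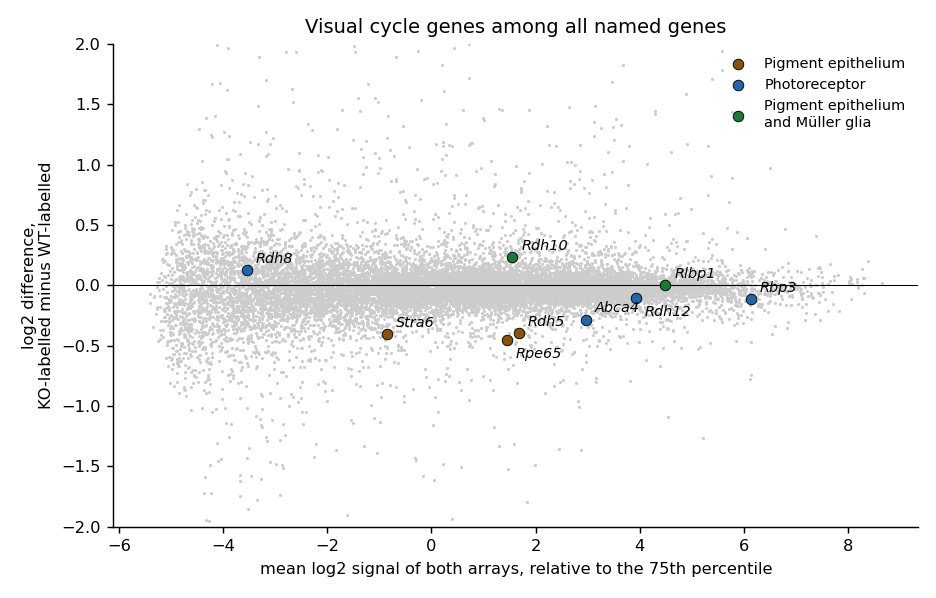
Log2 difference (y axis, KO-labelled minus WT-labelled) against mean log2 signal (x axis, relative to the 75th percentile) for 15247 named genes above background on both arrays (grey) and the 9 measured visual cycle genes (coloured by cell type); 62 genes beyond 2 on the y axis are not drawn. Rpe65, Rdh5 and Stra6 sit in the lower part of the cloud and Rlbp1 on the zero line.

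Promoter sequences are shown for a pair of the lower pigment epithelium genes, Rpe65 and Rdh5, and for a pair of photoreceptor genes, Abca4 and Rbp3, because the homeodomain factors OTX2 of the pigment epithelium and CRX of photoreceptors bind the same core, TAATCC. The windows run from 250 bases before to 50 bases after the annotated start site, are taken from RefSeq on build GRCm38.p6 and read 5′ to 3′ on the gene's strand. Capitals mark TAATCC or its reverse complement GGATTA, and all other bases are in lower case. The windows lie at chr3:159598931-159599230 on the plus strand (Rpe65), chr10:128919248-128919547 on the minus strand (Rdh5), chr3:122044210-122044509 on the plus strand (Abca4) and chr14:33953753-33954052 on the plus strand (Rbp3).
Rpe65: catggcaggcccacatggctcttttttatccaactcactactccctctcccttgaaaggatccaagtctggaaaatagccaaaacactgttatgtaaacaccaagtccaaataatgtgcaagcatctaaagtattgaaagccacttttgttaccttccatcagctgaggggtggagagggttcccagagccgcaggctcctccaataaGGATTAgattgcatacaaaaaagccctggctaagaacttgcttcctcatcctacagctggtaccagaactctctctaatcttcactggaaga
Rdh5: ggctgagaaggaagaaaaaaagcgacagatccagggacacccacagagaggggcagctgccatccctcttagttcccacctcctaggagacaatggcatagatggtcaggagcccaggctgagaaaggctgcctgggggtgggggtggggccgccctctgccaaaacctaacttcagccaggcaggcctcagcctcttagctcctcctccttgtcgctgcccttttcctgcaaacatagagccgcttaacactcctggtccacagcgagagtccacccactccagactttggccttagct
Abca4: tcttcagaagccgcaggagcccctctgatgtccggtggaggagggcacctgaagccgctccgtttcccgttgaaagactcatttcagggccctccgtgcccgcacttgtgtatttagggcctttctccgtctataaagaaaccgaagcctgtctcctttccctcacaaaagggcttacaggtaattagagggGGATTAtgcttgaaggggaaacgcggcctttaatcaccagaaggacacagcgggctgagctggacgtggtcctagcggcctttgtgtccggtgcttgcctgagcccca
Rbp3: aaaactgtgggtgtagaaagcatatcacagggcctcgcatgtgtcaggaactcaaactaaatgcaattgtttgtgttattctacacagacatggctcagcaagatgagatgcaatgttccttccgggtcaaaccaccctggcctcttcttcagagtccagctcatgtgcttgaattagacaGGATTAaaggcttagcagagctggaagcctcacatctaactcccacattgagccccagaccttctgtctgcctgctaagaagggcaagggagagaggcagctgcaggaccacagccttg

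The core was found on either strand in 3 of the 12 windows of the 9 visual cycle genes that had any, those of Rpe65, Abca4 and Rbp3, and in 7.06% of all 32851 promoter windows of that length. In each of the 3 it reads GGATTA on the printed strand, and its first base lies 42 bases before the start site in Rpe65, 58 in Abca4 and 69 in Rbp3. The window of Rdh5 and the 4 windows of Stra6 hold no TAATCC. No relation between these matches and the differences between the arrays was tested. A second core, CATGTG, one form of the E-box that MITF binds in pigment cells, was searched on both strands and does not overlap the first. It was present in 3 of the 12 windows, those of Rpe65, Rlbp1 and Rbp3, and in 14.2% of all windows. Both cores are matches of letters only.

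Pigment epithelium markers were also lower on the KO-labelled array as a list. The list held 13 pigment epithelium and pigment cell markers, all above background on both arrays. On the KO-labelled array 7 were lower by at least 0.32, against 7.59% of all named genes, and 4 differences were above 0. None of the 13 markers was higher by that much, and their median difference was -0.33. Their signals summed to 38.0 times the 75th percentile on the KO-labelled array and 44.6 times on the WT-labelled array, a ratio of 0.852. The bright probe of Trpm1, a channel that ON bipolar cells also make, carries much of that sum, and without it, a choice made after seeing the data, the sums were 23.3 on the KO-labelled array and 30.7 on the WT-labelled array, a ratio of 0.758. The list spread from -0.81 for Pmel, a melanosome matrix protein, and -0.68 for Tyrp1, a melanin synthesis enzyme, to 0.08 for Trpm1 and 0.15 for the chloride channel Best1. Rpe65, Rdh5 and Stra6 lay within the range of these markers, as did every other measured visual cycle gene except Rdh10. That range is too wide to set these genes apart. None of the 13 markers was at background on either array. Rrh, a pigment epithelium opsin given below, was not in the list and differed by only -0.06. In RNA from whole tissue, fewer cells of a type and less RNA per cell cannot be told apart, and the part of attached pigment epithelium in the difference of Rpe65, Rdh5 and Stra6 was not tested.

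Müller glia markers had a median difference of 0.06, with 11 of 13 above 0. Of the 13, 2 were higher by at least 0.32, Apoe and Hes1 (15.4%), against 6.1% of all named genes. Rlbp1 and Rdh10 fell inside the range of these markers, -0.15 to 0.44, but so did Rbp3, Rdh12 and Rdh8. The summed signal of the Müller glia markers was 1.05 times as high on the KO-labelled array as on the WT-labelled array. Rod markers had a median of -0.28 with 14 of 15 below 0. By at least 0.32, 5 were lower (33.3%), against 7.59% of all named genes. The summed signal of the rod markers on the KO-labelled array was 0.821 of that on the WT-labelled array. The lowest rod marker was Gnat1 at -2.13, the only one 2-fold apart, and the next was Slc24a1 at -0.51. How much of the lower rod sum came from Gnat1 was not computed. The photoreceptor visual cycle genes (median -0.11) all lay inside the range of the rod markers except Rdh8, whose 0.12 was above the highest rod marker, Rom1, at 0.08. The rod range also held Rpe65, Rdh5, Stra6 and Rlbp1. None of the 4 photoreceptor visual cycle genes was higher by at least 0.32 on the KO-labelled array. In the cone list 9 of 15 genes were, and of all named genes 6.1%. So few genes could not show a departure from that last share. How far the amounts of each cell type contributed to the difference of each gene was not tested.

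**Figure D4:**
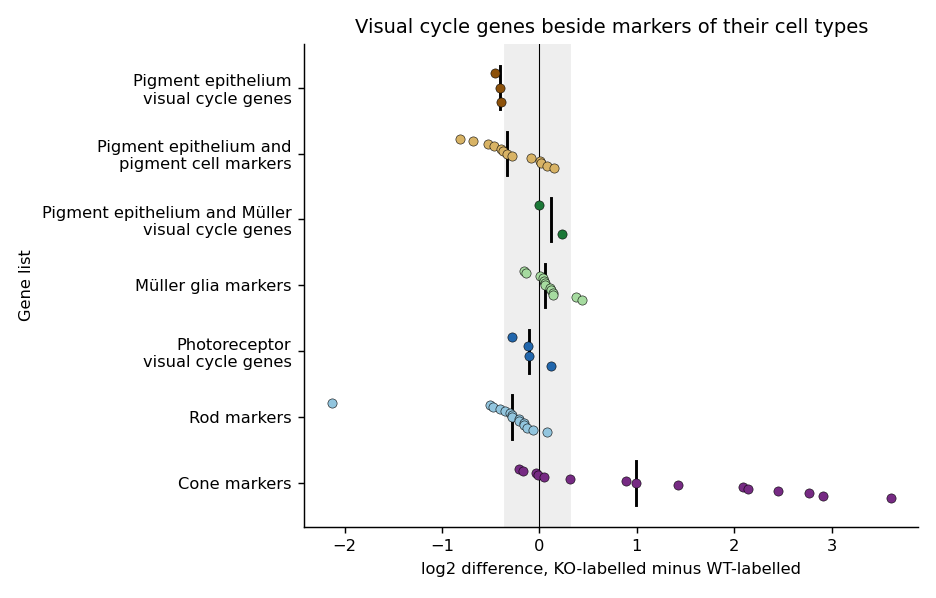
Log2 difference (x axis, KO-labelled minus WT-labelled) of the measured visual cycle genes of each cell type and of the markers of that cell type (rows); each point is a gene, black bars are medians, and the grey band spans the 5th to 95th percentile of all named genes (-0.36 to 0.32). The medians are -0.40 and -0.33 for pigment epithelium genes and markers. For the 2 genes shared by pigment epithelium and Müller glia, Rlbp1 and Rdh10, the median is 0.12, against 0.06 for 13 Müller glia markers. For photoreceptor genes the median is -0.11, against -0.28 for rod markers and 0.997 for cone markers.

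Around the visual cycle, 52 other genes of retinoid transport, metabolism and signalling were listed, of which 41 were above background on at least 1 array. Their median difference was -0.05. At 2-fold, 2 were higher and 1 lower, against 1.58% and 1.37% of all named genes. By at least 0.32, 3 were higher (7.32%) and 4 lower (9.76%), close to the 6.1% and 7.59% of all named genes. The 34 genes less than 0.32 apart included all measured enzymes of retinoic acid synthesis and breakdown and all 10 measured dehydrogenases and reductases.

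The 2 retinoid genes that were 2-fold higher were Rxrg, the retinoid X receptor of cones, and Lrp2. Rxrg had log2 signals of 4.31 on the KO-labelled array and 1.54 on the WT-labelled array, a difference of 2.77, and its other probe gave 1.23. Lrp2, or megalin, an endocytic receptor that takes up the plasma retinol carrier in kidney, had log2 signals of 1.36 on the KO-labelled array and 0.18 on the WT-labelled array, which is 2.26-fold higher. The other retinoid receptors lay between -0.29 (Rxra) and 0.08 (Rarg), with Rara at -0.15, Rarb at 0.07 and Rxrb at -0.05.

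Awat2, an acyltransferase that makes retinyl esters and has been proposed for a cone cycle in Müller glia, was dim. Its log2 signal was -6.01 on the KO-labelled array and -4.52 on the WT-labelled array, and only the WT-labelled one was above background, so it was at least 2.05-fold lower on the KO-labelled array. That bound takes the lowest signal well above background on the KO-labelled array in place of the measured one, and allows nothing for spot noise, which had an SD of 0.33 at such signals. Dgat1, an acyltransferase of triglycerides and retinyl esters, was at -0.16, and Degs1, a desaturase reported to isomerise retinol in Müller glia, at -0.08.

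Of the binding proteins, Ttr, the plasma carrier partner of Rbp4 and a product of the pigment epithelium, had the largest difference. Its log2 signal was 2.23 on the KO-labelled array and 2.76 on the WT-labelled array, a difference of -0.53. Rgr, a retinal-binding opsin of pigment epithelium and Müller glia, stood at 0.65 on the KO-labelled array and 1.02 on the WT-labelled array, a difference of -0.37, with -0.71 in its dimmer probe. Rrh, the pigment epithelium opsin known as peropsin, differed by only -0.06, with -0.10 in its other probe. Ttr and Rgr are also in the pigment epithelium marker list above, whereas Rrh is not. Without Ttr and Rgr, 5 of the 11 genes of that list were lower by at least 0.32 and its median was -0.28.

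The plasma carrier Rbp4 was at 0.08, and the retinoic acid-binding proteins Crabp1 and Crabp2 were at -0.29 and 0.02. Among reductases, Dhrs3, which returns retinal to retinol, had log2 signals of 5.45 on the KO-labelled array and 5.34 on the WT-labelled array, a difference of 0.11. Dhrs7 was at 0.19 and Rdh11, a retinal reductase related to Rdh12, at 0.03. Of the genes that set retinoic acid, the synthetic enzyme Aldh1a1 was level at -0.01 and Aldh1a3 at -0.08, and the degrading enzymes Cyp26a1 and Cyp26b1 were at 0.08 and -0.04. Scarb1, a receptor for lipoprotein and carotenoid uptake, was at -0.22, with -0.27 in its other probe. Cd36 (-0.33) and the carotenoid oxygenase Bco2 (0.36) passed a difference of 0.32, but at signals where repeated spots had an SD of 0.33.

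**Figure D5:**
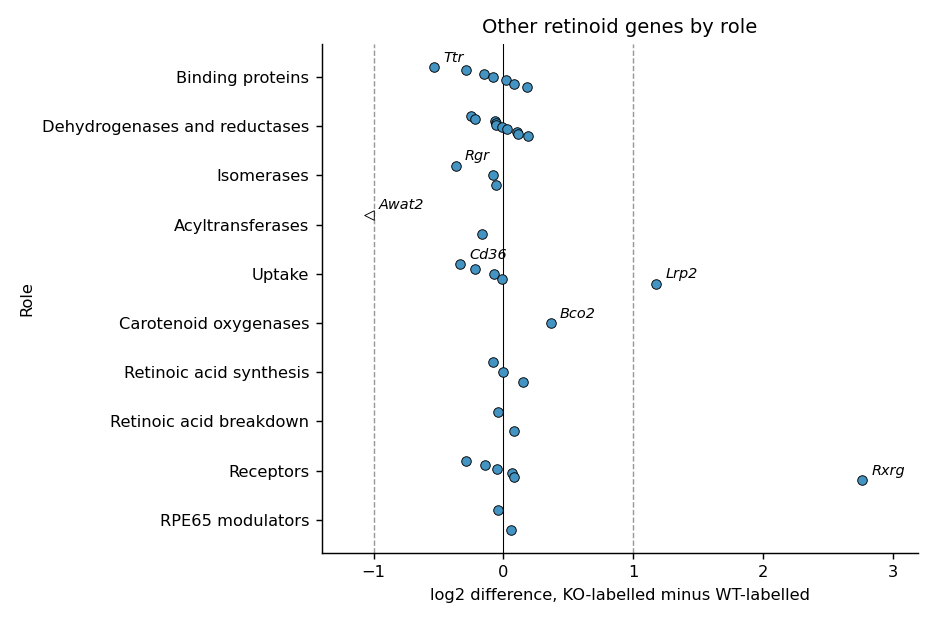
Log2 difference (x axis, KO-labelled minus WT-labelled) of the 41 other retinoid genes above background on at least 1 array, by role (rows); dashed lines mark 2-fold, genes at least 0.32 apart are named, and the open triangle is a bound. Rxrg at 2.77 and Lrp2 at 1.18 stand apart to the right, and Ttr at -0.53 is the lowest gene measured on both arrays.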

How the data were processed

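The scanner files hold linear intensity values, deposited by the authors from Agilent Feature Extraction (software version 11.5.1.1, protocol GE1_1105_Oct12) for an array designed on mm9, per the file headers. Both arrays lay on 1 slide. The authors' deposited value table holds the same intensity values times a constant per array of unstated rule (its column medians were 106 for KO and 108 for WT).

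Values were log2 processed signal minus the 75th percentile of non-control spots. Outlier-flagged spots were left out and repeated spots averaged. Of 55677 probes, 28330 were named by transcript accession through a RefSeq table of GRCm38.p6 and 27347 had no symbol. The brightest probe stood for a gene. A gene well above background on 1 array only gave a bound. Spot SDs came from probes with repeated spots above background on both arrays. Genes named were all 10 visual cycle genes, those of the retinoid list above background, and the extremes of the marker lists, with Samd7. One retinoid gene counted in its list is not reported here singly. The members, lists and thresholds, 0.32 included, were chosen with earlier results of these data known.

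Alternatives were median centring, quantile and loess normalization, normexp (limma 3.58.1, offset 50), the authors' values, the mean over probes, and stricter filtering. Python 3.11.15 and statsmodels 0.14.6 were used; counting was tested on simulated data.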

Additional observations from a re-analysis of the deposited data

How the results depend on the processing

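No visual cycle gene was 2-fold apart under any alternative run, nor 1.5-fold apart. The median of the pigment epithelium genes stayed between -0.41 and -0.37, also without Rpe65 (-0.40, an alternative chosen after seeing the data), that of photoreceptor genes between -0.11 and -0.08, and that of Rlbp1 and Rdh10 between 0.07 and 0.15. In each setting 3 genes were at least 0.32 apart on the log2 scale; they were Rpe65, Rdh5 and Stra6 except under normexp, where Stra6 at -0.32 fell just short of the unrounded threshold and Abca4 at -0.33 passed it. Of 63 recomputed differences over 7 settings, 2 moved by more than the spot SD, both under normexp: Rdh10 to 0.16 and Stra6 to -0.32. The sign changed in 3, all of Rlbp1, which was at 0.03 with median centring or loess and 0.02 with quantile normalization. Many of the 63 could not move, so their number does not measure robustness. The authors' values differ by a constant per array, which scaling removes, and the stricter filter kept all 9 measured genes. The mean over probes could change only Abca4, and median centring shifts every gene by the same amount. Normexp ran on median signals, for want of a mean spot signal in the scanner files. Lrat gave no value, since it was not above background on either array. No paired analysis was possible because there was only 1 array for KO and 1 for WT.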

Other observations

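Trpm1, a channel made by ON bipolar cells and by pigment cells, had 3 probes that did not move together. Its brightest probe differed by 0.08 and another by 0.12, whereas A_51_P338031 stood at -0.24 on the KO-labelled array and 0.16 on the WT-labelled array, a log2 difference of -0.40. The probe was singled out after its values were seen, and the part of the transcript it covers is not known here. Mitf, the transcription factor of pigment cells, was at 0.02 with its brighter probe and -0.13 with its dimmer one. Of the retinoid receptors, Rxra was lower with both probes, at -0.29 and -0.57. Both probes were dim, at signals where repeated spots had an SD of 0.19.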
